A study of Homo sapiens with 16 samples.

Results

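The genes described here are 37 genes of the NRF2 oxidant defence and of NADPH supply, measured in A549 cells, a long-established line from a human lung adenocarcinoma, after addition of TGF-beta to drive an epithelial to mesenchymal transition. They were taken by symbol from a list of NRF2-linked glutathione, thioredoxin, iron, NADPH and detoxification genes. The list leaves out the aldo-keto reductases, aldehyde dehydrogenases and ABC transporters. They make up 37 of the 57773 genes in the deposited tables. The libraries came from 8 times of 1 course: 0 h, the start of the course, and 6, 12, 24, 36, 48, 72 and 96 h of TGF-beta. Each time had 2 libraries. The values are TPM, an abundance corrected for gene length and scaled to a fixed total per library, so levels can be set side by side between genes. No untreated culture was used beside the later times, so TGF-beta and time in culture cannot be told apart. All 7 comparisons with 0 h share the same pair of libraries.

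NRF2, the product of NFE2L2, is a transcription factor that pairs with small MAF proteins and binds antioxidant response elements near genes for glutathione synthesis, thioredoxin reduction, iron storage, NADPH supply and detoxification. KEAP1 holds it back by handing it to a ubiquitin ligase, and oxidants or electrophiles relieve that block. A549 cells carry a defective KEAP1 and are known for high NRF2 activity without any added stress, so the 0 h level of these genes in this line is known to be a raised one.

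The core of the antioxidant response element, TGACNNNGC, was looked for on both strands of the promoter windows of RefSeq (build GRCh38.p14), which run from 250 bases before to 50 bases after a gene's start. A window was found for 30 of the 37 genes. There were 42 windows in all, because some genes have several starts. The core was in 14 of the 42 windows (33.3%), against 13.3% of all 35116 windows. Counted by gene, 13 of 30 had a core in at least 1 window (43.3%), against 16.1% of the 27305 genes with a window. They were CBR1, CYP4F11, EPHX1, GCLM, GPX2, IDH1, KEAP1, ME1, MGST1, PGD, PIR, TXNRD1 and UGT1A6. The AP-1 motif TGANTCA, which shares letters with many antioxidant response elements, was in 5 of the 42 windows (11.9%), against 7.71% of all windows, and it overlapped the core in ME1 and PIR. A match is only a match of letters, and enhancers farther away were not searched. The list was chosen as NRF2-linked, so these shares describe it and are no separate evidence of NRF2 control. The windows of 5 genes are printed because they hold a core and their transcripts took different courses. Those of GCLM (chr1:93909381-93909680, minus strand), TXNRD1 (chr12:104286782-104287081, plus strand), GPX2 (chr14:64942696-64942995, minus strand) and PIR (chrX:15493284-15493583, minus strand) belong to genes that fell during the course. That of ME1 (chr6:83431002-83431301, minus strand) belongs to a gene that was not called without the replicate block described below. With that block ME1 was called at 3 times, the first at 48 h. Another window of TXNRD1 (chr12:104215529-104215828, plus strand) holds 2 cores and is not printed. Each printed window runs 5′ to 3′ along the gene, and capitals mark the core, printed as its reverse complement where it lies on the other strand.
GCLM: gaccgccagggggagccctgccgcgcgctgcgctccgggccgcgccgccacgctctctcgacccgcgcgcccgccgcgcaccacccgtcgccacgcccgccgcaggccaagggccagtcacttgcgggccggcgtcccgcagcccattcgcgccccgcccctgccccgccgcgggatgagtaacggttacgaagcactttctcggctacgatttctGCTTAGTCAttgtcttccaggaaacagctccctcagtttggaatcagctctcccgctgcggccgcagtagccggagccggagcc
TXNRD1: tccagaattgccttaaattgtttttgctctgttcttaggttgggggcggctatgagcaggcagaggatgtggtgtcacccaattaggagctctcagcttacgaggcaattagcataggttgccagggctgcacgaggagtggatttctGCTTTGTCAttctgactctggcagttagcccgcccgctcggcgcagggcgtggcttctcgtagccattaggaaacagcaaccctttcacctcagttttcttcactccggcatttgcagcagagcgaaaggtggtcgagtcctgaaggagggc
GPX2: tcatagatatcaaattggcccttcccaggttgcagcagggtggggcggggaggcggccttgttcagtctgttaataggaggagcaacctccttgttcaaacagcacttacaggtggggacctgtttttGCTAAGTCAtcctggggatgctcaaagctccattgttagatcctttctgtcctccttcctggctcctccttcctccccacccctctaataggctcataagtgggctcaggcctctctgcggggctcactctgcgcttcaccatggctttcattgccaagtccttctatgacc
PIR: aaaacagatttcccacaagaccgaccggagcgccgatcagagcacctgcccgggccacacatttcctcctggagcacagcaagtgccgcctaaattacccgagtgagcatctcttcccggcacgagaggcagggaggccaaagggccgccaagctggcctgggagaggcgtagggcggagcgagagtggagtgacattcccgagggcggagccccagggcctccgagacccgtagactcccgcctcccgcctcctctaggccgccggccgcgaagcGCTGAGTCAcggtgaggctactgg
ME1: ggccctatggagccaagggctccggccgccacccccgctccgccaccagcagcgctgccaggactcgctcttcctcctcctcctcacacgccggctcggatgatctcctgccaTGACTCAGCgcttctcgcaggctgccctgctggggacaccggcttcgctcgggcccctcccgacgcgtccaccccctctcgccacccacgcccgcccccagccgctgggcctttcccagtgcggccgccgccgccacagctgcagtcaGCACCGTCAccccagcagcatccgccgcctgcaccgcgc

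TPM hold no read totals, so sequencing depth is unknown. A set of 6 abundant small RNAs, led by RN7SL1, took from 42.5% of all TPM (12 h replicate 1) to 64.1% (48 h replicate 1), which changes the scale of every other gene. The share was 64.1% and 60.2% at 48 h, against 51.8% and 51.8% at 0 h. Over all 16967 genes tested, the median log2 fold change was -0.37 at 6 h and -0.46 at 48 h against 0 h, and between -0.20 and 0.0289 at the other times. A change of a single gene is measured on top of that shift. TMM scaling, which rescales the libraries to a common trimmed mean, brought these medians to between -0.0295 and 0.0884. Between 29278 and 31187 genes were at 0 in 14 libraries, while 36 h replicate 2 had 36116 and 48 h replicate 2 had 36294. The 13 mitochondrially encoded transcripts, a measure of RNA quality led by MT-CO3, summed to 9095 and 8534 TPM at 0 h, 5058 and 4406 at 6 h, 3631 and 4909 at 48 h and 9118 and 5868 at 96 h. Their part in the results was not tested. Of the epithelial markers, 6 of 7 passed the filter on low values given below, led by KRT18. The 7 markers summed to 1699.7 and 1822 TPM at 96 h, against 3731 and 4781 TPM at 0 h. Of markers of other cell types, 5 of 10 fibroblast genes (led by COL1A1, summed 3.32 to 163 TPM), 1 of 6 matched endothelial genes (ESAM), 3 of 8 leukocyte genes (led by CD68) and 0 of 5 erythroid genes (led by HBA1) passed it. VWF, KDR and CD3E stood at 0 to 0.5 TPM, with VWF at no more than 0.05 TPM in any library. Other genes of their lists were higher. The endothelial list summed to 0.3 to 7.41 TPM and the leukocyte list to 5.68 to 14.62 TPM.

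Nearly the whole set ended the course below its start. At 96 h the libraries did not overlap with those of 0 h and lay lower for 35 of the 37 genes (31.0% of all genes tested did so). At 72 h this held for 36 (41.5% of all genes). SLC7A11 and UGT1A6 were the exceptions at 96 h, and UGT1A6 at 72 h. With TMM scaling 28 genes lay lower without overlap at 96 h (19.1% of all genes) and 33 at 72 h (26.3%). The genes that overlapped at 96 h on that scale were CBR1, EPHX1, GSTM3, IDH1, KEAP1, MGST1, SLC7A11, TALDO1 and UGT1A6. The median log2 fold change of the 37 genes at 96 h was -1.26, against -0.20 over all genes tested, and -0.96 against 0.0162 with TMM scaling. By mean TPM the least was left of CYP4F3, at 2.64% of the 0 h mean at 96 h (by log2 change GPX2 moved furthest, as given below), while UGT1A6 alone had a mean above its start, at 113%. Summed over the set, the libraries held 4389 and 5469 TPM at 96 h, against 13491 and 14449 at 0 h. Without the ferritins FTL and FTH1 the sums were 2725 and 3172 TPM at 96 h, against 6656 and 7707 at 0 h, which is 41.1% of the start (53.1% with TMM scaling). With TMM scaling the 96 h libraries lay further apart, at 2154 and 4218 TPM, against 5769 and 6218 at 0 h. Over all 37 genes the sums on that scale were 3468 and 7271 TPM at 96 h, against 11693 and 11658 at 0 h.

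**Figure D1:**
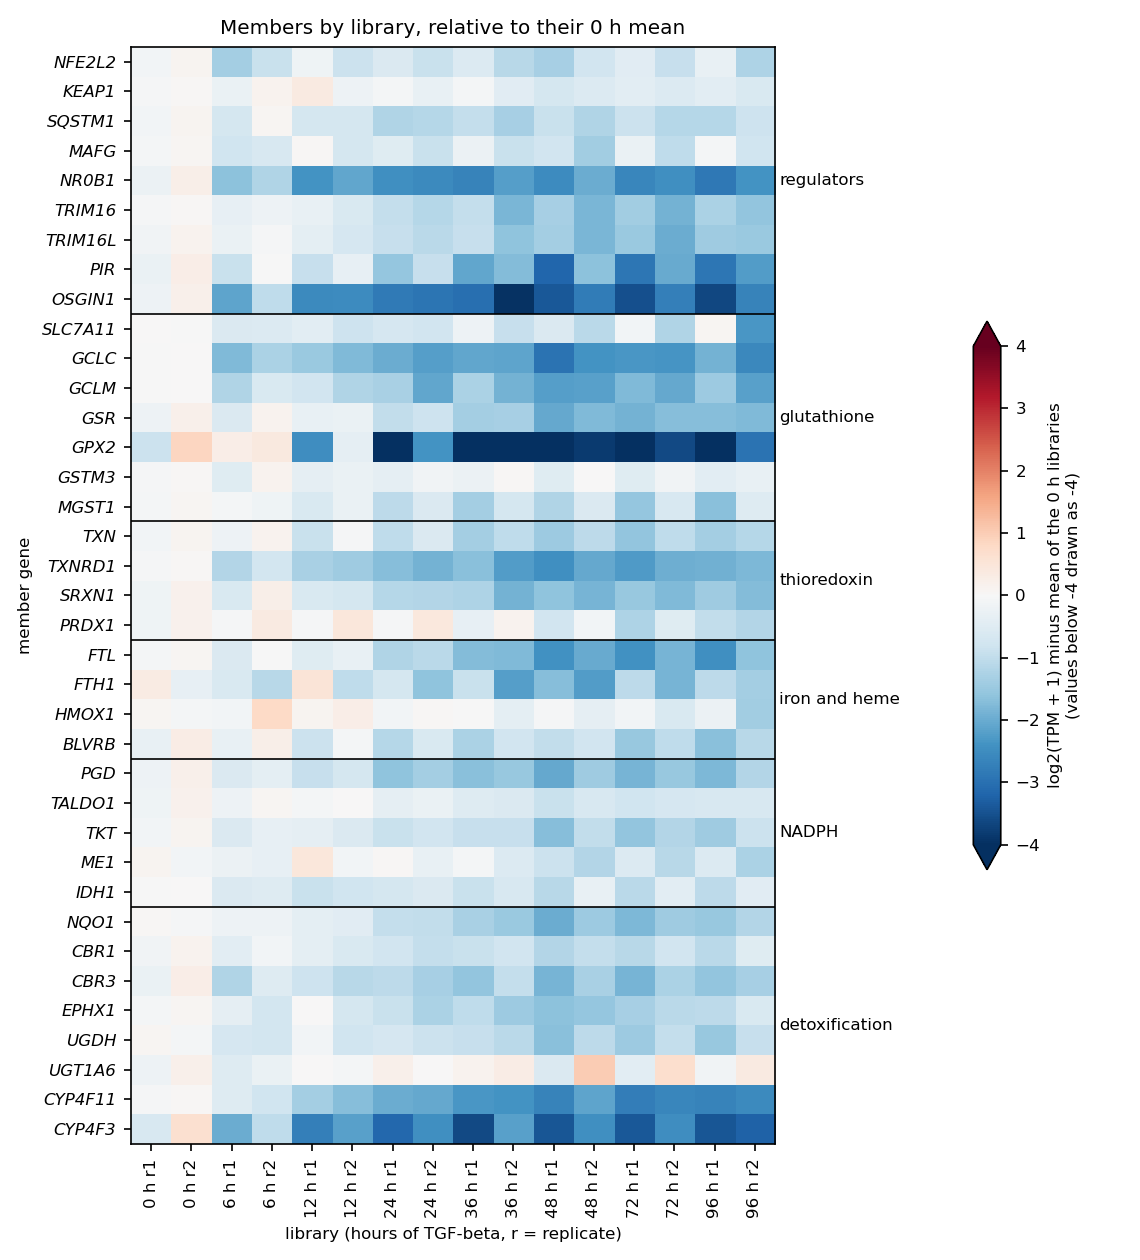
Each row is 1 of the 37 genes, grouped by role, and each column a library; colour gives log2(TPM + 1) minus the mean of the 0 h libraries, with values below -4 drawn as -4. The blue deepens between 12 and 48 h in most rows, while HMOX1, UGT1A6, GSTM3, KEAP1 and PRDX1 stay pale until late or throughout.

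Differences were tested on log2(TPM + 1), a scale that shrinks the changes of genes near 0. The test was a limma model fitted to all 16967 genes that reached 1 TPM in 2 or more libraries, which all 37 genes did. A gene is called here when its Benjamini-Hochberg adjusted p over all those genes was below 0.05. A log2 change is the difference of mean log2(TPM + 1), later time minus earlier, and errors are its SE or the SD over 2 libraries. The labels do not call the replicates separate cultures, so the p-values cover only the spread among these samples, technical spread perhaps included. With 2 against 2 libraries an exact permutation test has a smallest p of 0.333. Counts over the set with a replicate block, a term for the replicate number that the labels give the libraries, stand beside those that it moved by more than 1.5 times. In a bulk sample, fewer cells of a type and less RNA per cell cannot be told apart.

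The number of the 37 genes called lower than at 0 h grew until 48 h (with TMM scaling it was highest at 72 h). On TPM as deposited and without the block, no gene of the set was called higher at any time. Of all genes tested, the share called higher was 0.0% (6 h), 0.253% (12 h), 0.613% (24 h), 0.967% (36 h), 0.796% (48 h), 0.831% (72 h) and 0.536% (96 h). At 6 h no gene of the set was called lower by limma (0.0177% of all genes tested were called lower). The median of the set at 6 h was -0.40, against -0.37 over all genes. With TMM scaling the median was 0.18, above 0, and none was called (0.0354% of all genes called lower). At 6 h 22 genes lay below both 0 h libraries (61.8% of all genes) and 0 above (5.66%), while with TMM scaling 8 lay below (23.0%) and 18 above (39.2%). At 12 h 5 were called lower (0.13% of all genes): GCLC, TXNRD1, NR0B1, OSGIN1 and CYP4F11, which were called again at every later time. At 24 h 8 were called (0.595% of all genes), the additions being GCLM, PGD and CYP4F3, and all 8 were also called at 96 h. The counts called lower were then 17 for 36 h (1.33% of all genes), 25 for 48 h (6.8%), 20 for 72 h (1.74%) and 16 for 96 h (1.26%). Over the whole course the moderated F test of limma called 15 of the 37, against 1.72% of all genes.

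These counts depend on the scaling, on the block and on the 0 h libraries. With TMM scaling the counts were 4 for 12 h (0.271% of all genes called lower; TXNRD1 was lost), 7 for 24 h (0.713%; PGD was lost) and 10 over the whole course (3.16%; FTL, GPX2, NQO1, PGD and PIR were lost). They were 8 for 36 h (1.23% of all genes called lower), 8 for 48 h (2.14%), 12 for 72 h (1.45%) and 9 for 96 h (1.01%). Over all genes TMM scaling moved the calls at 96 h to 1.01% lower and 1.45% higher, against 1.26% and 0.536% with TPM as deposited. With the replicate block, 24 were called at 24 h (1.92% of all genes called lower), 27 at 96 h (3.31%) and 25 over the whole course (6.13%). The additions at 24 h were the 8 further genes called at 96 h and BLVRB, CBR1, CBR3, EPHX1, FTH1, GPX2, SQSTM1 and TXN. Those at 96 h were BLVRB, CBR3, FTH1, GPX2, ME1, MGST1, PRDX1, SQSTM1, TALDO1, TXN and UGDH (adjusted p with the block from 0.000184 to 0.0451). By role the calls with the block at 96 h were 6 of 9 regulators, 5 of 7 glutathione, 4 of 4 thioredoxin, 3 of 4 iron and heme, 4 of 5 NADPH and 5 of 8 detoxification genes. Leaving out 0 h replicate 2 kept 0 of the 8 calls at 24 h and 1 of the 16 at 96 h (CYP4F11), and leaving out 0 h replicate 1 kept 4 and 9. Leaving out 24 h replicate 2 kept 0 of the 8 calls at 24 h. Without 24 h replicate 1 or 0 h replicate 1 the 4 that remained were CYP4F11, GCLC, NR0B1 and TXNRD1. At 24 h GCLM also lost its call with any single library of 48 or 72 h left out, and CYP4F3 without either of 6 h. Leaving out 96 h replicate 1 kept 6 of the 16 calls at 96 h. The 5 calls at 12 h were all lost without 0 h replicate 1, 0 h replicate 2 or 12 h replicate 1. At 36 h, 0 of 17 calls remained when 0 h replicate 2 was left out, 2 when 36 h replicate 2 was, and 9 when either 0 h replicate 1 or 36 h replicate 1 was. At 48 h, 4 of 25 remained when 0 h replicate 2 was left out, 8 when 48 h replicate 1 was, and 14 when 0 h replicate 1 was. At 72 h, 4 of 20 remained when 0 h replicate 2 was left out, 5 when 72 h replicate 1 was, and 12 when 0 h replicate 1 was. Of the 15 calls over the whole course, 4 remained when 0 h replicate 2 was left out, 6 when 0 h replicate 1 was, and 9 when 6 h replicate 2 was. Leaving out both libraries with the most genes at 0 (36 h replicate 2 and 48 h replicate 2) left 1 call at 12 h and 1 at 36 h, where a lone library was then assumed to vary like the others. The median of the set stayed below that of all genes at 12 h and later with both scalings.

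**Figure D2:**
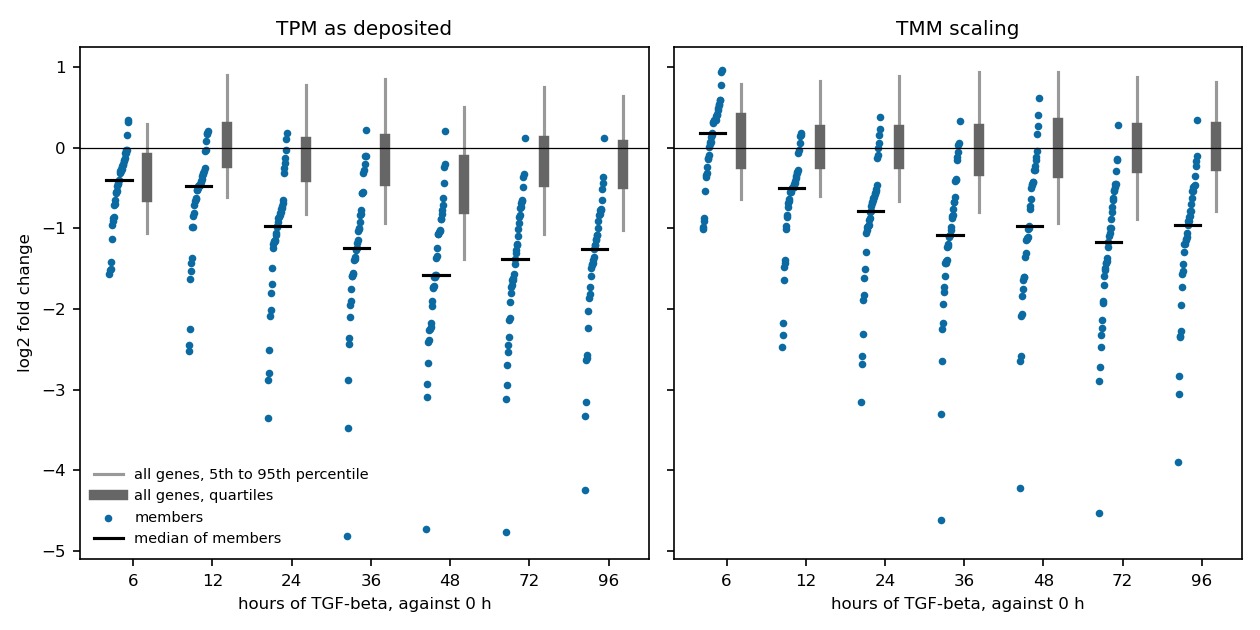
For each time after 0 h, the blue points are the log2 fold changes of the 37 genes with their median as a black line, and the grey bars beside them are the quartiles and the 5th to 95th percentiles of all 16967 genes tested, with TPM as deposited (left panel) and with TMM scaling (right panel). At 6 h the median of the 37 genes is close to that of all genes, and from 12 h it lies below it, with -0.97 and -1.26 at 24 and 96 h with TPM as deposited.

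Among the 9 regulators, the transcription factor, its adaptor and its partner were not called at any time on TPM as deposited, while the other 6 were called lower at some time. NFE2L2 itself (chr2:177227595-177392697 on GRCh38, minus strand; all gene positions are on that build) had 36.3 and 42.2 TPM at 0 h, 14.7 and 20.5 at 6 h, 34.3 and 21.1 at 12 h and 25.7 and 20.6 at 24 h. NFE2L2 then had 26.7 and 17.5 TPM at 36 h, 15.1 and 22.8 at 48 h, 28.4 and 20.1 at 72 h and 31.5 and 16.1 at 96 h, with replicate 1 before replicate 2 in each pair, as in all such lists. Its libraries lay below those of 0 h at every later time and were lowest on average at 6 h (at 36 h with TMM scaling). It was not called at 24 h (log2 change -0.74 with an SE of 0.37, adjusted p = 0.506) or at 96 h (log2 change -0.77 with an SE of 0.37, adjusted p = 0.398). AGPS, on the opposite strand over the same region, averaged 24.9 TPM. KEAP1, the adaptor that marks NRF2 for degradation, had 25.4 and 27.4 TPM at 0 h, 21.7 and 29.1 at 6 h, 34.3 and 22.9 at 12 h and 24.8 and 21.3 at 24 h. KEAP1 then had 24.8 and 18.9 TPM at 36 h, 15.99 and 17.6 at 48 h, 19.2 and 17.9 at 72 h and 19.6 and 16.9 at 96 h. Its values overlapped with those of 0 h at 6 and 12 h and lay lower later; with TMM scaling they lay lower only at 36 and 72 h. It was not called at 96 h (log2 change -0.51 with an SE of 0.25, adjusted p = 0.412). MAFG, a small MAF partner of NRF2, had 18.8 and 21.2 TPM at 0 h, 11.1 and 12.5 at 6 h, 20.9 and 11.8 at 12 h and 14.00 and 10.3 at 24 h. MAFG then had 17.01 and 10.2 TPM at 36 h, 11.4 and 7.01 at 48 h, 16.4 and 9.37 at 72 h and 18.7 and 11.2 at 96 h. Its lowest library was at 48 h, and it was not called at 96 h (log2 change -0.44 with an SE of 0.38, adjusted p = 0.715). With the replicate block MAFG was called lower at 48 h (adjusted p = 0.025, and 0.233 with TMM scaling as well). Neither the block nor TMM scaling gave any of these 3 genes a call at 24 or 96 h; a miss of the threshold does not show that their levels held.

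Several of the other regulators are known as NRF2 targets themselves, and 5 of the 9 genes in this group were called lower at 96 h, with a group median of -1.42. NR0B1, an orphan nuclear receptor known from NRF2-active lung cancer cells (chrX:30304206-30309598), had 12.9 and 18.4 TPM at 0 h, 4.26 and 6.18 at 6 h, 2.1 and 2.85 at 12 h and 1.99 and 1.8 at 24 h. NR0B1 then had 1.6 and 2.54 TPM at 36 h, 1.86 and 3.17 at 48 h, 1.67 and 2.01 at 72 h and 1.26 and 2.1 at 96 h. Both later libraries lay below both of 0 h at every time, and from 12 h no library reached 4 TPM. NR0B1 fell at 24 h (log2 change -2.50 with an SE of 0.31, adjusted p = 0.00438) and at 96 h (log2 change -2.63 with an SE of 0.31, adjusted p = 0.0023). OSGIN1, an inhibitor of growth induced by oxidative stress (chr16:83948282-83966332), had 16.8 and 22.96 TPM at 0 h, 3.75 and 9.28 at 6 h, 2.56 and 2.61 at 12 h and 1.88 and 1.72 at 24 h. OSGIN1 then had 1.55 and 0.34 TPM at 36 h, 0.98 and 1.94 at 48 h, 0.81 and 2.12 at 72 h and 0.65 and 2.24 at 96 h. It too had no overlap with 0 h at any time, with 13.02% of its 0 h mean left at 12 h. OSGIN1 fell at 24 h (log2 change -2.88 with an SE of 0.46, adjusted p = 0.0117) and 96 h (log2 change -3.16 with an SE of 0.46, adjusted p = 0.0058).

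PIR, an iron-binding nuclear protein (chrX:15384799-15493564), had its lowest mean at 96 h (at 72 h with TMM scaling). It had 45.7 and 65.8 TPM at 0 h, 29.2 and 54.1 at 6 h, 28.6 and 43.8 at 12 h and 18.01 and 28.2 at 24 h. PIR then had 12.3 and 15.96 TPM at 36 h, 5.26 and 16.8 at 48 h, 6.52 and 12.9 at 72 h and 6.58 and 10.8 at 96 h. It overlapped with 0 h at 6 h only, and with TMM scaling at 6 and 12 h. PIR was not called at 24 h (log2 change -1.25 with an SE of 0.50, adjusted p = 0.345) but fell at 96 h (log2 change -2.56 with an SE of 0.50, adjusted p = 0.0207). TRIM16, a ubiquitin ligase that stabilises NRF2, averaged 51.9 ± 7.74 TPM at 96 h, against 140.3 ± 8.17 at 0 h, and fell (log2 change -1.42 with an SE of 0.30, adjusted p = 0.031). TRIM16L, a near-identical shorter copy, averaged 51.6 ± 1.63 TPM at 96 h, against 143 ± 20.9 at 0 h, and fell (log2 change -1.44 with an SE of 0.27, adjusted p = 0.0194). Reads shared by the copies can have been split between them, so the 2 values are not independent. SQSTM1, the autophagy receptor that draws KEAP1 away from NRF2, had 161 and 198 TPM at 96 h, against 332 and 382 at 0 h. It was called at 36 and 48 h and not at 96 h (log2 change -0.99 with an SE of 0.26, adjusted p = 0.0856). With TMM scaling SQSTM1 was called at no time, and its 48 h libraries (295 and 166 TPM) overlapped with those of 0 h (288 and 308 TPM). MGAT4B on the opposite strand averaged 47.4 TPM. Leaving out 0 h replicate 2 kept 0 of the 5 calls at 96 h (adjusted p = 0.0694 to 0.326) and leaving out 0 h replicate 1 kept 2 (NR0B1 and OSGIN1). Leaving out 96 h replicate 1 kept 1 (NR0B1), and leaving out 96 h replicate 2 kept 3 (NR0B1, OSGIN1 and PIR). TRIM16 also lost its call with any single library of 6 or 24 h left out (highest adjusted p over all single libraries left out = 0.326). NR0B1 and OSGIN1 kept the call at 96 h with TMM scaling, while PIR, TRIM16 and TRIM16L had adjusted p = 0.0604, 0.0973 and 0.0941.

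**Figure D3:**
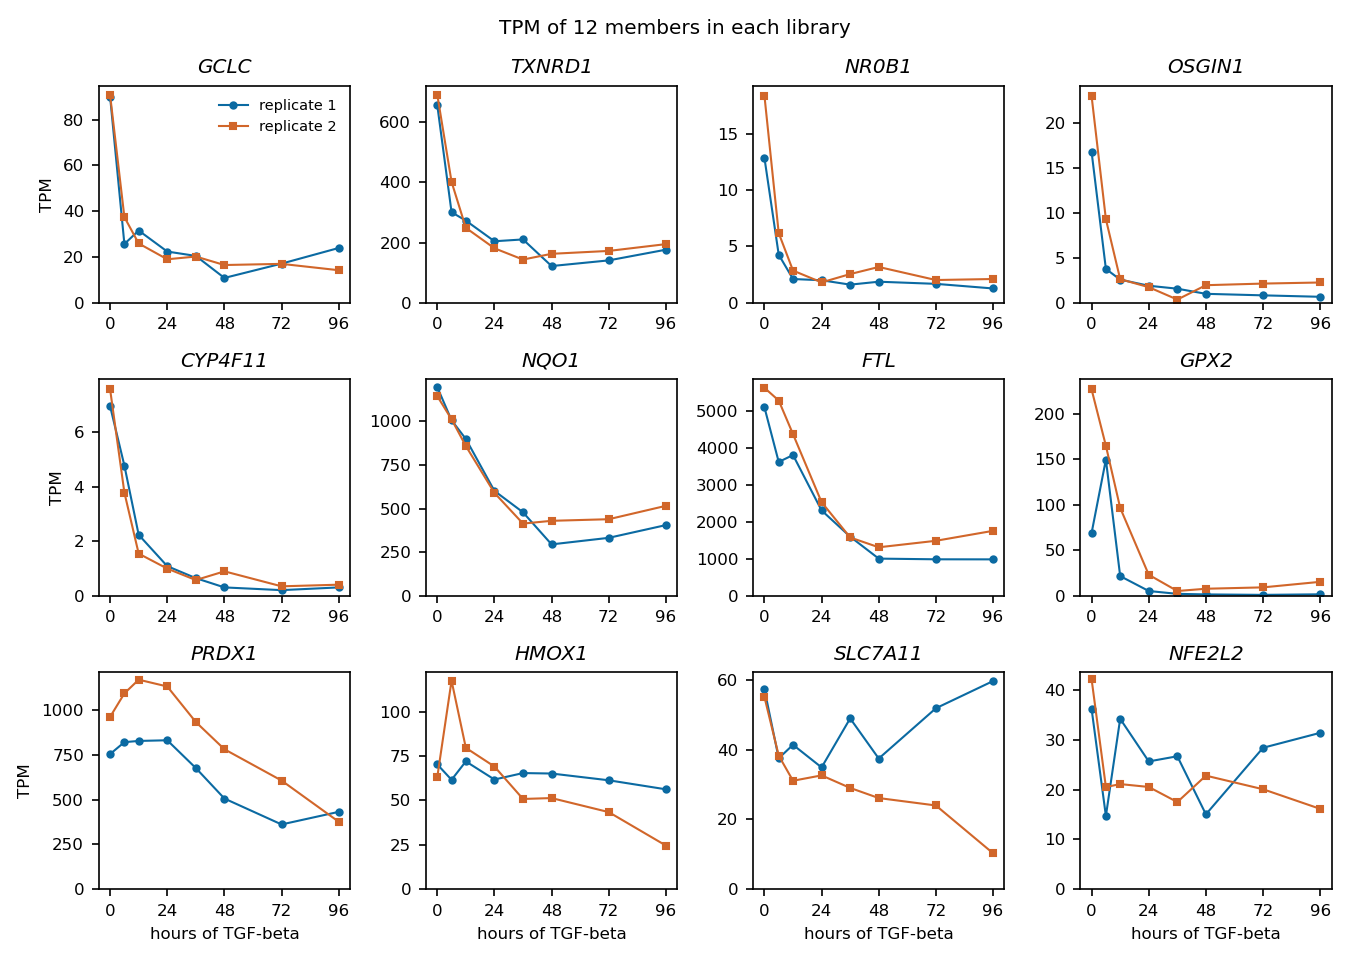
TPM of 12 of the genes in each library against hours of TGF-beta, with replicate 1 as circles and replicate 2 as squares. On TPM as deposited, GCLC and TXNRD1 drop most between 0 and 6 h (with TMM scaling TXNRD1 drops most between 6 and 12 h). The means of NQO1 and FTL are lowest at 48 h on TPM as deposited (at 72 h with TMM scaling), and PRDX1 stays near its start until 24 h. SLC7A11 ends with 59.7 TPM in replicate 1 and 10.3 TPM in replicate 2 at 96 h.

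Both subunits of glutamate-cysteine ligase, the rate-limiting enzyme of glutathione synthesis, fell by 24 h and were still lower at 96 h. GCLC, the catalytic subunit (chr6:53497341-53616970), had 89.98 and 90.7 TPM at 0 h, 25.6 and 37.4 at 6 h, 31.5 and 25.9 at 12 h and 22.3 and 18.9 at 24 h. GCLC then had 20.4 and 20.1 TPM at 36 h, 10.8 and 16.4 at 48 h, 17.04 and 16.9 at 72 h and 23.9 and 14.2 at 96 h. The 2 libraries of 0 h nearly coincided and all 14 later ones lay below them, with 34.9% of the mean left at 6 h and 21.1% at 96 h. With TMM scaling GCLC had 77.99 and 73.1 TPM at 0 h and 36.8 and 43.0 at 6 h. It fell at 24 h (log2 change -2.08 with an SE of 0.28, adjusted p = 0.00614) and at 96 h (log2 change -2.23 with an SE of 0.28, adjusted p = 0.00306). GCLM, the modifier subunit (chr1:93885205-93909456), had 47.8 and 48.1 TPM at 0 h, 20.1 and 31.2 at 6 h, 27.7 and 20.3 at 12 h and 18.9 and 10.6 at 24 h. GCLM then had 19.4 and 12.1 TPM at 36 h, 9.73 and 9.9 at 48 h, 13.4 and 10.8 at 72 h and 17.1 and 9.8 at 96 h. None of its later libraries reached the 0 h level, and it fell at 24 h (log2 change -1.69 with an SE of 0.35, adjusted p = 0.0376) and 96 h (log2 change -1.81 with an SE of 0.35, adjusted p = 0.0198).

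GSR, the NADPH-dependent reductase that returns glutathione to its reduced form, took a slower course, with 119 and 158 TPM at 0 h, 91.8 and 150.3 at 6 h, 112 and 114 at 12 h and 68.3 and 76.5 at 24 h. GSR then had 52.6 and 53.8 TPM at 36 h, 32.2 and 40.00 at 48 h, 36.4 and 41.4 at 72 h and 41.6 and 39.98 at 96 h. Its libraries overlapped with 0 h at 6 h and lay lower after that. With TMM scaling they lay above 0 h at 6 h, overlapped at 12 h and lay lower from 24 h. GSR was not called at 24 h (adjusted p = 0.105 by limma) and fell at 96 h (log2 change -1.73 with an SE of 0.25, adjusted p = 0.00545). GPX2, a selenium-dependent glutathione peroxidase of epithelia (chr14:64939152-64942905), had 69.1 and 227 TPM at 0 h, 149.7 and 165 at 6 h, 21.7 and 96.7 at 12 h and 5.33 and 23.2 at 24 h. GPX2 then had 2.2 and 5.33 TPM at 36 h, 1.6 and 7.82 at 48 h, 1.09 and 9.33 at 72 h and 1.7 and 15.4 at 96 h. Its 0 h libraries differed more than 3-fold, those of 6 h lay between them, and from 24 h every library lay below both. With TMM scaling both libraries of 6 h lay above both of 0 h. GPX2 had the largest change of the set at 96 h with a wide error (log2 change -4.25 with an SE of 1.06, adjusted p = 0.0644) and was not called there or at 24 h (log2 change -3.35 with an SE of 1.06, adjusted p = 0.186). It was called at 36, 48 and 72 h and over the whole course, and at none of these with TMM scaling (adjusted p = 0.0556 to 0.0685 at the 3 times). With the replicate block it was called at both (adjusted p = 0.00135 and 0.000184). CHURC1, on the opposite strand of GPX2, averaged 32.95 TPM, which was more than the late values of GPX2.

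The import and conjugation genes of this group were not called at any time. SLC7A11, the cystine importer that supplies cysteine for glutathione, had 57.4 and 55.2 TPM at 0 h, 37.6 and 38.3 at 6 h, 41.4 and 31.1 at 12 h and 34.9 and 32.6 at 24 h. SLC7A11 then had 49.01 and 29.1 TPM at 36 h, 37.5 and 26.1 at 48 h, 51.9 and 24.01 at 72 h and 59.7 and 10.3 at 96 h. Its replicates parted late in the course, replicate 1 ending slightly above its own start and replicate 2 far below it. The change at 96 h (log2 change -1.13 with an SE of 0.59, adjusted p = 0.454) rested on 1 library, since without 96 h replicate 2 it was 0.085. GSTM3, a glutathione transferase, stayed between 3.59 and 6.09 TPM. MGST1, a membrane-bound transferase, had 74.7 and 167 TPM at 96 h, against 227 and 249.8 at 0 h (log2 change -1.08 with an SE of 0.40, adjusted p = 0.23), and was called only with the block (adjusted p = 0.0296). Of the 7 glutathione genes, 3 were called lower at 96 h, with a median of -1.73. With 0 h replicate 2 left out, 0 of these 3 calls remained (adjusted p = 0.0694 to 0.222). GCLM also lost its call without 0 h replicate 1 (adjusted p = 0.0988) or 96 h replicate 2 (0.0847). All 3 kept the call with TMM scaling.

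In the thioredoxin system the reductase was called from 12 h, sulfiredoxin from 36 h, thioredoxin at 48 and 72 h, and the peroxiredoxin PRDX1 at no time. TXNRD1, the selenoprotein that reduces thioredoxin with NADPH (chr12:104215779-104350305), had 657 and 692 TPM at 0 h, 301 and 402 at 6 h, 273 and 249 at 12 h and 204 and 181 at 24 h. TXNRD1 then had 210.3 and 143 TPM at 36 h, 122 and 162 at 48 h, 141 and 172 at 72 h and 176 and 195 at 96 h. All later libraries lay below 0 h, with 52.1% of the mean left at 6 h, and it fell at 24 h (log2 change -1.81 with an SE of 0.24, adjusted p = 0.0054) and 96 h (log2 change -1.86 with an SE of 0.24, adjusted p = 0.00307). With TMM scaling TXNRD1 had 569.7 and 558.5 TPM at 0 h, 432.1 and 462.2 at 6 h and 173.4 and 264.8 at 12 h. SRXN1, sulfiredoxin, which repairs over-oxidised peroxiredoxins, had 82.9 and 104 TPM at 0 h, 59.7 and 109 at 6 h, 60.2 and 55.96 at 12 h and 41.1 and 40.6 at 24 h. SRXN1 then had 38.7 and 24.02 TPM at 36 h, 29.8 and 24.9 at 48 h, 31.7 and 26.8 at 72 h and 33.8 and 26.97 at 96 h. It overlapped with 0 h at 6 h only, and with TMM scaling both libraries of 6 h lay above both of 0 h. SRXN1 was not called at 24 h (adjusted p = 0.0892 by limma) and fell at 96 h (log2 change -1.59 with an SE of 0.30, adjusted p = 0.0186).

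PRDX1, a peroxiredoxin that removes hydrogen peroxide and the most abundant gene of the thioredoxin group on average, was under 50% of its 0 h mean at 96 h only (at no time with TMM scaling). It had 754 and 961 TPM at 0 h, 820.3 and 1093 at 6 h, 827 and 1169 at 12 h and 831 and 1131 at 24 h. PRDX1 then had 676 and 933 TPM at 36 h, 506 and 781 at 48 h, 361 and 606 at 72 h and 431 and 376 at 96 h. Its libraries at 6 to 48 h overlapped with those of 0 h, and both lay below at 72 and 96 h. With TMM scaling both libraries of 6 h lay above both of 0 h. It was called neither at 24 h (log2 change 0.19 with an SE of 0.32, adjusted p = 0.939) nor at 96 h (log2 change -1.08 with an SE of 0.32, adjusted p = 0.126), but with the replicate block it was called at 96 h (adjusted p = 0.00638). TXN, thioredoxin, had 191 and 223 TPM at 96 h, against 454 and 539 at 0 h, was called at 48 and 72 h, and missed the threshold at 96 h (log2 change -1.26 with an SE of 0.30, adjusted p = 0.0592). With TMM scaling TXN was called at no time. TXN and PRDX1 have processed pseudogenes that can take or lend reads. Both calls at 96 h, of TXNRD1 and SRXN1, were lost without 0 h replicate 2 (adjusted p = 0.0772 to 0.275). SRXN1 also lost its call without 0 h replicate 1, 96 h replicate 1 or 96 h replicate 2 (adjusted p = 0.0618, 0.0698 and 0.0636). Both kept the call with TMM scaling.

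Ferritin light chain was the most abundant transcript of the set, and on TPM as deposited it fell at 36 h and every later time, while with TMM scaling it was called at none (adjusted p = 0.0609 to 0.122 at 36 to 96 h). FTL, the light subunit of the iron store (chr19:48965301-48966878), had 5106 and 5634 TPM at 0 h, 3626 and 5289 at 6 h, 3813 and 4379 at 12 h and 2314 and 2537 at 24 h. FTL then had 1603 and 1581 TPM at 36 h, 1008 and 1315 at 48 h, 989.8 and 1491 at 72 h and 988 and 1761 at 96 h. From 12 h all libraries lay below 0 h on TPM as deposited. With TMM scaling those of 6 h lay above 0 h (5207 and 6082 TPM, against 4425 and 4545). On that scale those of 12 h overlapped and those from 24 h lay lower. FTL fell at 96 h on TPM as deposited (log2 change -2.02 with an SE of 0.29, adjusted p = 0.0058), after no call at 24 h (adjusted p = 0.0887 by limma). FTH1, the heavy chain with the oxidase centre, had 1729 and 1108 TPM at 0 h, 897 and 644 at 6 h, 1972 and 685 at 12 h and 847 and 456 at 24 h. FTH1 then had 745 and 300.1 TPM at 36 h, 427 and 292 at 48 h, 670.4 and 384 at 72 h and 676 and 536 at 96 h. Replicate 1 was the higher library at every time, 12 h replicate 1 exceeded both 0 h libraries, and FTH1 was not called at 96 h (log2 change -1.20 with an SE of 0.53, adjusted p = 0.348). Both ferritins have many processed pseudogenes, so their counting is uncertain, and with TMM scaling FTL was no longer called at 96 h (log2 fold change -1.73, adjusted p = 0.113). The call was also lost without 0 h replicate 2 (adjusted p = 0.115) and without 96 h replicate 1 (0.0606).

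Heme breakdown showed no call. HMOX1, heme oxygenase and a textbook NRF2 target that BACH1 also represses (chr22:35380361-35394214), had 70.3 and 63.1 TPM at 0 h, 61.6 and 118 at 6 h, 71.99 and 79.6 at 12 h and 61.8 and 69.1 at 24 h. HMOX1 then had 65.4 and 50.8 TPM at 36 h, 65.2 and 51.3 at 48 h, 61.4 and 43.4 at 72 h and 56.3 and 24.6 at 96 h. At 12 h it was the 1 gene of the set with both libraries above both of 0 h (15.2% of all genes were), and with TMM scaling no gene of the set was (20.3% of all genes). Its highest value was in 6 h replicate 2, and at 72 and 96 h both libraries lay below. It was not called at 24 h (log2 change -0.0275 with an SE of 0.37, adjusted p = 0.989), where TMM scaling turned the sign (0.16), or at 96 h (log2 change -0.82 with an SE of 0.37, adjusted p = 0.36). BLVRB, a biliverdin and flavin reductase, had 51.5 and 77.4 TPM at 96 h, against 135 and 208 at 0 h. BLVRB missed the threshold (log2 change -1.40 with an SE of 0.35, adjusted p = 0.0688), but was called with the block (adjusted p = 0.000588). Of the 4 iron and heme genes, FTL alone was called at 96 h, and the group median was -1.30.

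Among the suppliers of NADPH, 2 of the 3 pentose phosphate genes of the set fell at 96 h. PGD, which makes NADPH at the second oxidative step of the pathway (chr1:10398592-10420144), had 514 and 674 TPM at 0 h, 397 and 448 at 6 h, 309 and 364 at 12 h and 193 and 227 at 24 h. PGD then had 184 and 206 TPM at 36 h, 143 and 217 at 48 h, 160.2 and 204 at 72 h and 168 and 260.1 at 96 h. Every later library lay below both of 0 h on TPM as deposited, while with TMM scaling those of 6 h overlapped with 0 h. PGD fell at 24 h (log2 change -1.49 with an SE of 0.27, adjusted p = 0.0207) and 96 h (log2 change -1.49 with an SE of 0.27, adjusted p = 0.0146). TKT, transketolase of the non-oxidative branch, had 717 and 844 TPM at 0 h, 526 and 626 at 6 h, 609 and 524 at 12 h and 419.7 and 453 at 24 h. TKT then had 414 and 407 TPM at 36 h, 239 and 394 at 48 h, 262 and 342 at 72 h and 292 and 425 at 96 h. No later library reached those of 0 h on TPM as deposited. With TMM scaling both libraries of 6 h lay above both of 0 h (755 and 720 TPM, against 621 and 681). TKT fell at 96 h with an adjusted p just inside the threshold (log2 change -1.14 with an SE of 0.26, adjusted p = 0.0499). TALDO1, transaldolase, had 127 and 126 TPM at 96 h, against 177 and 221 at 0 h (log2 change -0.65 with an SE of 0.19, adjusted p = 0.128) and was called at 48 h only. With TMM scaling that call was lost, and its 48 h libraries (163 and 135 TPM) overlapped with those of 0 h (154 and 179 TPM).

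ME1, the cytosolic malic enzyme, and IDH1, the cytosolic isocitrate dehydrogenase, give NADPH outside the pentose phosphate pathway. Neither was called without the replicate block. ME1 had 47.2 and 41.2 TPM at 0 h, 36.99 and 34.7 at 6 h, 60.6 and 40.8 at 12 h and 45.1 and 36.05 at 24 h. ME1 then had 42.01 and 29.8 TPM at 36 h, 23.9 and 19.02 at 48 h, 29.8 and 19.9 at 72 h and 29.7 and 17.9 at 96 h. It overlapped with 0 h at 12, 24 and 36 h (with TMM scaling at 6 and 48 h as well). ME1 was lower at 96 h without a call (log2 change -0.91 with an SE of 0.31, adjusted p = 0.19), but was called there with the block. Its small change at 24 h (-0.13) turned to 0.0595 with TMM scaling. IDH1 had 42.7 and 65.9 TPM at 96 h, against 90.1 and 90.2 at 0 h (log2 change -0.75 with an SE of 0.30, adjusted p = 0.279). Of the 5 NADPH genes, 2 were called lower at 96 h, with a median of -0.91, the smallest of the 6 role groups. Both calls were lost without 0 h replicate 2 (adjusted p = 0.26 to 0.479) and without 96 h replicate 1 (0.109 to 0.181). TKT kept its call only with 48 h replicate 1, 48 h replicate 2 or 96 h replicate 2 left out (highest adjusted p over all single libraries left out = 0.479). With TMM scaling neither was called (adjusted p = 0.21 for PGD and 0.347 for TKT).

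**Figure D4:**
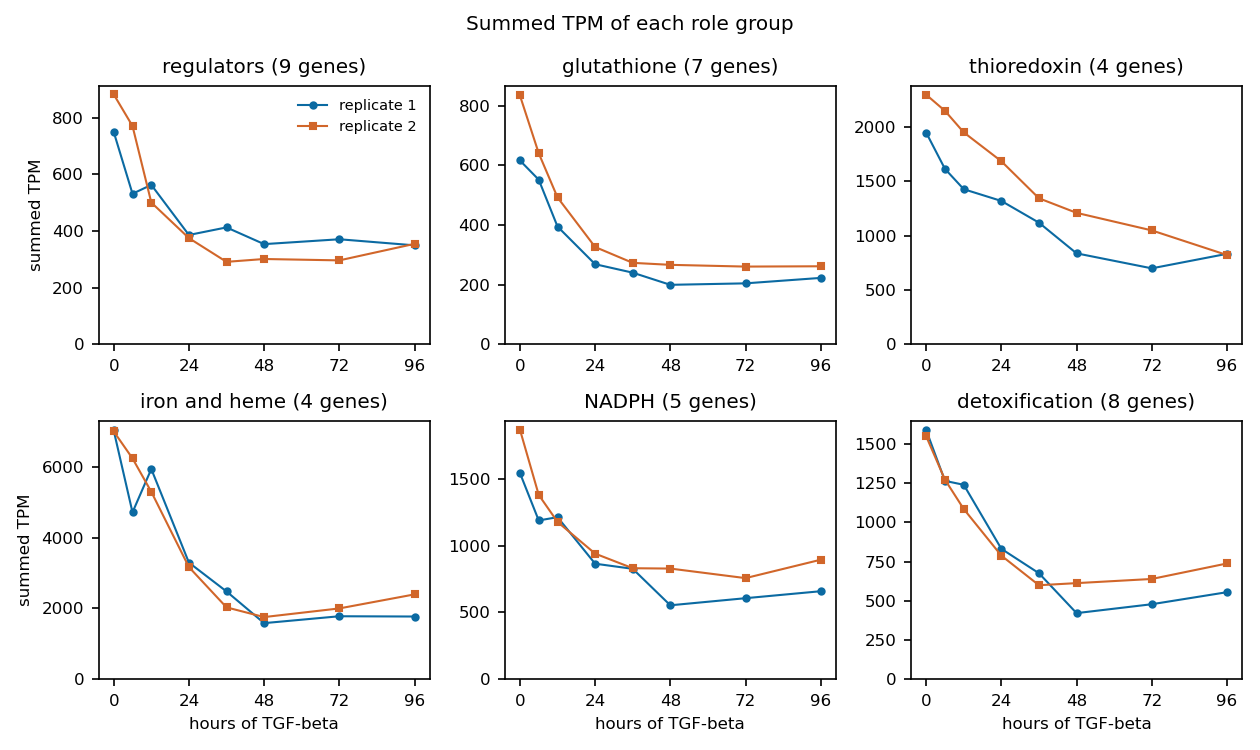
Summed TPM of the genes of each role group in each library against hours of TGF-beta, with replicate 1 as circles and replicate 2 as squares. The glutathione group was at 40.99% of its 0 h sum at 24 h and at 33.4% at 96 h, while the thioredoxin group, of which PRDX1 is the largest part, was at 70.7% and 38.9%.

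NQO1, the quinone reductase that is the standard readout of NRF2 activity, was abundant and on TPM as deposited fell at 36 h and every later time, while with TMM scaling it was called at none (adjusted p = 0.0602 to 0.19 at 36 to 96 h). It lies on chr16:69706996-69726951 and had 1196 and 1144 TPM at 0 h, 1006 and 1012 at 6 h, 899 and 859 at 12 h and 601 and 590.1 at 24 h. NQO1 then had 479 and 414 TPM at 36 h, 295 and 430.0 at 48 h, 332 and 439 at 72 h and 405 and 516 at 96 h. On TPM as deposited, replicates were close at 0 to 24 h and all later libraries lay below both of 0 h. With TMM scaling both libraries of 6 h lay above both of 0 h (1445 and 1163 TPM, against 1037 and 923). So did 39.2% of all genes, and the NQO1 replicates parted at 12 h on that scale (571 and 914 TPM). NQO1 fell at 96 h on TPM as deposited (log2 change -1.35 with an SE of 0.22, adjusted p = 0.00944), after missing the threshold at 24 h (adjusted p = 0.0564 by limma). With TMM scaling it was not called at 96 h (log2 fold change -1.06, adjusted p = 0.19).

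The CYP4F genes, which encode fatty acid omega-hydroxylases, had 4.95% (CYP4F11) and 2.64% (CYP4F3) of a low starting level left at 96 h. CYP4F11 (chr19:15912367-15934867) had 6.96 and 7.58 TPM at 0 h, 4.78 and 3.79 at 6 h, 2.24 and 1.55 at 12 h and 1.09 and 1.0 at 24 h. CYP4F11 then had 0.65 and 0.58 TPM at 36 h, 0.31 and 0.9 at 48 h, 0.21 and 0.35 at 72 h and 0.31 and 0.41 at 96 h. Every later library lay below both of 0 h on TPM as deposited, while with TMM scaling those of 6 h overlapped with 0 h. CYP4F11 had the lowest adjusted p of the set at 96 h (log2 change -2.60 with an SE of 0.25, adjusted p = 0.000886), after a fall at 24 h (log2 change -2.02 with an SE of 0.25, adjusted p = 0.00438). CYP4F3 (chr19:15640897-15662825), which acts on leukotrienes, had 7.78 and 20.6 TPM at 0 h, 2.51 and 5.76 at 6 h, 1.09 and 2.08 at 12 h and 0.57 and 1.5 at 24 h. CYP4F3 then had 0.14 and 2.06 TPM at 36 h, 0.29 and 1.54 at 48 h, 0.31 and 1.45 at 72 h and 0.3 and 0.45 at 96 h. Its 0 h libraries differed but lay above all later ones, and it fell at 24 h (log2 change -2.80 with an SE of 0.57, adjusted p = 0.0368) and 96 h (log2 change -3.33 with an SE of 0.57, adjusted p = 0.0118). Paralogs of this family share sequence, so the split of reads between them is uncertain.

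The remaining 5 detoxification genes were not called at 96 h. CBR3, a carbonyl reductase of low abundance, had 1.66 and 2.14 TPM at 96 h, against 5.59 and 8.59 at 0 h (log2 change -1.46 with an SE of 0.35, adjusted p = 0.0597) and was called at 48 and 72 h. With TMM scaling CBR3 was called at 72 h only. CBR1, its abundant relative, was at 59.1% and EPHX1, an epoxide hydrolase, at 55.99% of the 0 h mean at 96 h (adjusted p = 0.157 and 0.197 by limma). Both had been lower at 48 h, at 47.1% and 31.7%, where they were called. With TMM scaling neither CBR1 nor EPHX1 was called at any time. UGDH, which makes the UDP-glucuronate used in conjugation, had 83.96 and 127 TPM at 96 h, against 253 and 227 at 0 h (log2 change -1.21 with an SE of 0.30, adjusted p = 0.064). Its antisense neighbour UGDH-AS1 averaged 95.3 TPM, so reads of the 2 strands may be mixed where counting used no strand. UGT1A6, a glucuronosyltransferase whose last exons are shared with the other UGT1A genes, was the only gene of the 37 with a mean above its start at 96 h. It had 2.01 and 3.28 TPM at 96 h, against 1.85 and 2.84 at 0 h. It was not called (log2 change 0.12 with an SE of 0.47, adjusted p = 0.948) and its sign turned without 0 h replicate 1 (-0.10). Of the 8 detoxification genes, 3 were called lower at 96 h, with a median of -1.28. CYP4F11 kept its call when any library was left out at 96 h or 0 h. CYP4F3 lost it without 0 h replicate 2 or 96 h replicate 1 (highest adjusted p = 0.206). NQO1 lost it without either 0 h library or 96 h replicate 1 (highest adjusted p = 0.129).

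**Figure D5:**
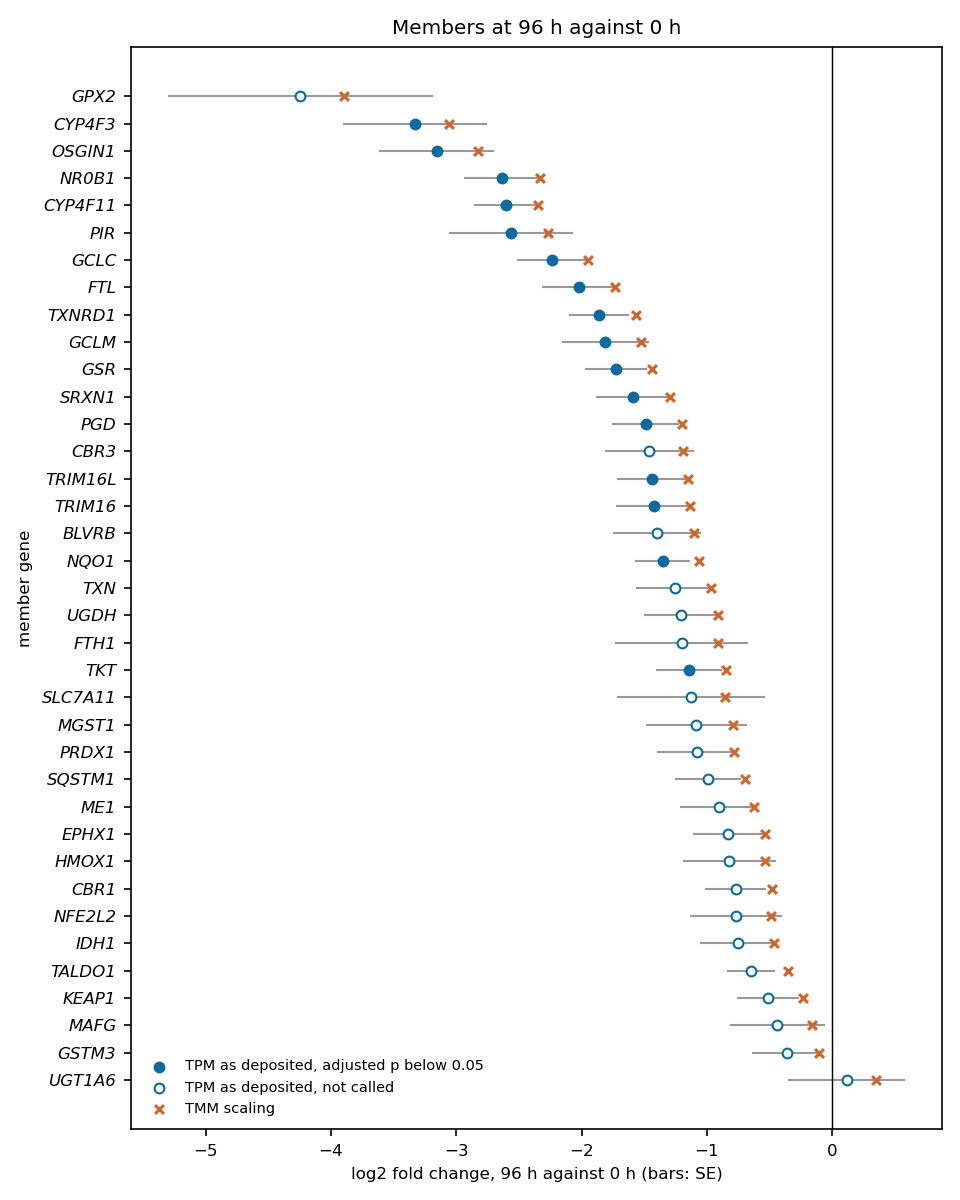
Log2 fold change of each of the 37 genes at 96 h against 0 h, with the SE as a bar: filled circles are called at an adjusted p below 0.05 with TPM as deposited, open circles are not, and crosses are the values with TMM scaling. The genes run from GPX2 at -4.25 to UGT1A6 at 0.12; the crosses lie to the right of the circles throughout, and 36 of the 37 circles lie below 0.

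The timing of the losses differed between genes. The mean at a later time was under 50% of the 0 h mean from 6 h for 6 genes, from 12 h for 3, from 24 h for 10, from 36 h for 5, from 48 h for 4, from 72 h for 1, from 96 h for 1 (PRDX1), and never for 7. The 6 earliest were GCLC, OSGIN1, NR0B1, CYP4F3, CBR3 and NFE2L2, the last of which was above 50% again at 12 h. With TMM scaling the counts were 2 from 6 h (OSGIN1 and CYP4F3), 7 from 12 h, 2 from 24 h, 8 from 36 h, 3 from 72 h and 15 never. The lowest mean stood at 48 h for 18 of the 37 genes, at 72 h for 6 and at 96 h for 7. With TMM scaling it stood at 48 h for 0 genes, at 36 h for 7, at 72 h for 21 and at 96 h for 4. The 48 h libraries also had high shares of small RNAs, as given above, and with TMM scaling 8 of the 25 calls at 48 h were made. At 48 h both libraries lay below 0 h for 33 of the 37 genes, but so they did for 62.3% of all genes tested. At 24 h it was 33, against 37.1% of all genes, and at 12 h 25, against 16.1%. With TMM scaling the counts without overlap were 25 at 48 h (26.3% of all genes), 30 at 24 h (24.4%) and 22 at 12 h (18.2%).

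Comparisons between later times do not use the 0 h libraries. At 24 h against 6 h no gene of the set was called by limma (0.0% of all genes tested were called lower and 0.00589% higher). The libraries of 26 genes did not overlap and lay lower at 24 h (6.89% of all genes did), and 34 with TMM scaling (35.5%). The median was -0.68, against 0.24 over all genes. With the replicate block 3 were called (0.13% of all genes called lower), with TMM scaling 1 (CYP4F11; 0.0236%) and with both 12 (0.802%). At 96 h against 6 h, 4 were called lower (0.318% of all genes) and 0 higher (0.33%). They were CYP4F11 (log2 change -1.95 with an SE of 0.25, adjusted p = 0.00522) and GSR (log2 change -1.50 with an SE of 0.25, adjusted p = 0.0212). FTL (log2 change -1.73 with an SE of 0.29, adjusted p = 0.0247) and NQO1 (log2 change -1.14 with an SE of 0.22, adjusted p = 0.0403) were the other two. The libraries of 29 genes did not overlap and lay lower at 96 h than at 6 h (11.1% of all genes; 29 and 28.9% with TMM scaling), and the median was -0.91, against 0.18. With the block the count was 15 (1.3%) and with TMM scaling 10 (1.72%), among which FTL and NQO1 were not. Without 6 h replicate 2 none of the 4 remained, and without 6 h replicate 1 or 96 h replicate 1 it was 1 (GSR and CYP4F11 in that order). NFE2L2 and MAFG had higher means at 96 h than at 6 h without a call (log2 fold changes 0.36 and 0.28), and MAFG turned to -0.0265 with TMM scaling. At 96 h against 24 h no gene of the set was called by limma (0.0% of all genes were called lower and 0.0118% higher). With the block PRDX1 was called lower (0.212% of all genes), and with block and TMM scaling PIR was called instead (0.583%).

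Genes of the same pathways outside the set, from 5 lists chosen with earlier results of these data known, held 6 calls at 96 h, all of them lower. Of NRF2 control (other CNC and MAF proteins, BACH factors and parts of the KEAP1 ligase), 0 of 11 tested genes were called, with a median log2 change of -0.22. Of glutathione handling, 0 of 27 were called (median -0.41). Of thioredoxin, peroxiredoxin and superoxide handling, 1 of 20 was called (-0.26) and of iron and heme 1 of 16 (-0.19). Of detoxification, 4 of 15 were called (-0.51); all genes tested had a median of -0.20 and 1.26% called lower. With the replicate block glutathione handling had 2 calls (GLRX and GGT1, named because the block called them), thioredoxin, peroxiredoxin and superoxide handling 2, iron and heme 3 and detoxification 7. Of all genes tested, 3.31% were called lower with the block. With TMM scaling thioredoxin, peroxiredoxin and superoxide handling had 0 calls, 0 also with the block, and detoxification 3. The calls lost with TMM scaling were those of PRDX3 and PTGR1 (adjusted p = 0.313 and 0.192). Of all genes tested, 1.01% were called lower with TMM scaling and 3.18% with TMM scaling and the block. PRDX3, the mitochondrial peroxiredoxin, had 56.7 and 77.2 TPM at 96 h, against 166 and 177 at 0 h (log2 change -1.36 with an SE of 0.29, adjusted p = 0.0358). TFRC, the transferrin receptor that brings in iron, had 25.4 and 19.7 TPM at 96 h, against 72.2 and 63.4 at 0 h (log2 change -1.55 with an SE of 0.34, adjusted p = 0.0373). In detoxification the largest changes were in CYP4F12, a relative of CYP4F11 (log2 change -2.31 with an SE of 0.37, adjusted p = 0.00849), and CYP2S1 (log2 change -2.02 with an SE of 0.34, adjusted p = 0.0103).

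Of 4 NRF2-linked genes from families that the set leaves out, 3 fell at 96 h. AKR1B10, an aldo-keto reductase, had 113 and 332 TPM at 96 h, against 1439.6 and 1613 at 0 h (log2 change -2.97 with an SE of 0.46, adjusted p = 0.00826). AKR1C1, of the same family, also fell (log2 change -2.95 with an SE of 0.66, adjusted p = 0.0426), as did ALDH3A1, an aldehyde dehydrogenase (log2 change -4.27 with an SE of 0.81, adjusted p = 0.0186). ABCC2, an efflux transporter, was lower without a call at 96 h (log2 change -2.16 with an SE of 0.64, adjusted p = 0.126). With TMM scaling AKR1B10 kept its call (adjusted p = 0.0494), while AKR1C1 and ALDH3A1 did not (0.134 and 0.0511). The calls of these genes and of the pathway lists were not recomputed with single libraries left out.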

How the data were processed

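Per the labels' protocols, RNA of A549 cells was extracted with Trizol and sequenced from Illumina TruSeq libraries. TPM per gene were deposited by the authors in 2 tables, 1 for each replicate number, with 8 times in each. Bowtie and RSEM are named in the submitters' processing notes; no source used here gives their versions, the genome build, the annotation or the use of strand in counting. Gene coordinates in the text are those of GENCODE on GRCh38, matched by Ensembl ID, and promoter windows are those of RefSeq.

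From the TPM, log2(TPM + 1) was fitted with limma 3.58.1 in R 4.3.3, with 1 mean per time, all 16 libraries, a mean-variance trend and Benjamini-Hochberg adjustment over the 16967 genes that reached 1 TPM in 2 or more libraries. Python 3.11.15 with pandas 2.3.3 joined and summarised the tables. Data of the same size were simulated with genes changed at 96 h only. For 96 h against 0 h the fit called 11 of 100 genes changed by 1 on the log2 scale. It called 57 of 100 changed by 2. Neither the shift of whole libraries nor the tendency of same-numbered libraries to deviate together was simulated. No 2 libraries were identical.

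The genes and lists were chosen with earlier results of these data known. All 37 genes are named; those called at 24 h, at 96 h, at 96 h against 6 h or over the course are given in full, with NFE2L2, KEAP1 and MAFG. Of each list of other pathway genes, up to 2 called genes with the largest change at 96 h are named, and AKR1B10, AKR1C1, ALDH3A1 and ABCC2 besides; of each marker list, the most abundant gene. The markers VWF, KDR and CD3E, and PTGR1, GLRX and GGT1, were named after their values were seen. Some genes and 1 list are not reported here.

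The alternatives were TMM scaling, a replicate block, both together, a pseudocount of 0.1, no filter, each library left out in turn, and 36 h replicate 2 and 48 h replicate 2 left out. Same-numbered libraries tended to lie on the same side of their time's mean: the correlation of these deviations was over 0.1 in 28 of 28 pairs of times (lowest 0.128, median 0.438), and in 27 of 28 with TMM scaling. The labels do not say what a replicate number stands for, so the pairing comes from the data.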

Additional observations from a re-analysis of the deposited data

Results flagged for a closer look

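HMOX1, heme oxygenase, lay on opposite sides of its start at different times on TPM as deposited. Both libraries of 12 h lay above both of 0 h, with a mean of 75.8 TPM at 12 h and 66.7 TPM at 0 h. Both libraries of 72 h lay below both of 0 h, with a mean of 52.4 TPM at 72 h, and so did both of 96 h, with a mean of 40.4 TPM. HMOX1 was called at none of these times, and the difference between the times was not tested. At 12 h 15.2% of all genes tested had both libraries above both of 0 h. With TMM scaling HMOX1 overlapped with 0 h at 12 h, with 45.7 and 84.7 TPM at 12 h, against 60.9 and 50.9 at 0 h. It overlapped at 72 h too (56.3 and 44.3 TPM). On that scale both libraries lay above those of 0 h at 6 h (88.5 and 135 TPM, where 39.2% of all genes lay higher) and below them at 96 h (44.5 and 32.6 TPM).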

How the results depend on the processing

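Depth is unknown, and 2 libraries per time limit the power: calls at every time against 0 h rest on the same pair. When each library was left out in turn, calls among the 37 genes against 0 h numbered 0 to 0 (6 h), 0 to 5 (12 h), 0 to 11 (24 h), 0 to 18 (36 h), 4 to 26 (48 h), 4 to 22 (72 h) and 1 to 17 (96 h). Against 6 h they numbered 0 to 0 (24 h) and 0 to 5 (96 h), against 24 h 0 to 0 (96 h), and over the whole course 4 to 17. With the replicate block the counts were 24 (24 h) and 27 (96 h) against 0 h, 3 (24 h) and 15 (96 h) against 6 h, 1 for 96 h against 24 h and 25 over the course. At 36, 48 and 72 h the count with the block was within 1.5 times of that without, and the block ended no call. With TMM scaling they were 8 (36 h), 8 (48 h), 12 (72 h) and 9 (96 h) against 0 h, and 1 (24 h) and 10 (96 h) against 6 h. TMM scaling and the replicate block together gave 2 calls at 6 h against 0 h (0.466% of all genes called lower and 2.15% higher). They gave 8 at 12 h (1.37% and 3.56%) and 15 at 48 h (5.23% and 5.63%). Against 6 h they gave 12 at 24 h (0.802% and 0.79%) and 24 at 96 h (5.56% and 3.05%). For 96 h against 24 h they gave 1 (0.583% and 0.253%). A pseudocount of 0.1 gave 3 at 12 h. With no filter the counts were 10 at 36 h, 2 at 96 h against 6 h and 8 over the course, with more genes tested. Without both libraries with the most genes at 0 they were 1 at 12 h, 1 at 36 h and 2 at 96 h against 6 h. For the pseudocount, the missing filter and the libraries left out, the share of all genes called is not given here. These counts therefore cannot be set against all genes. Except where stated, the cause was not tested.

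Signs were compared between settings only at 24 h against 0 h, 96 h against 0 h and 96 h against 6 h. There they turned for 9 genes, none of them called in the comparison concerned. Signs at 6 h against 0 h are not counted here. At 6 h 18 genes lay above both 0 h libraries with TMM scaling, against 0 on TPM as deposited. With TMM scaling, with or without the replicate block, the log2 changes were 0.16 for HMOX1 and 0.0595 for ME1 (24 h against 0 h) and -0.0265 for MAFG (96 h against 6 h). Without single libraries, log2 changes at 24 h against 0 h ranged over -0.11 to 0.0521 for HMOX1, -0.28 to 0.0321 for ME1, -0.0351 to 0.41 for PRDX1 and -0.11 to 0.32 for UGT1A6. Those at 96 h against 0 h ranged over -2.34 to 0.085 for SLC7A11 and -0.14 to 0.37 for UGT1A6. Those at 96 h against 6 h ranged over -1.79 to 0.64 for SLC7A11, -0.0664 to 0.63 for MAFG, -0.10 to 0.82 for NFE2L2, -0.49 to 0.11 for GSTM3 and -0.52 to 0.10 for IDH1.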
